A study of Mus musculus with 11 samples.

Results

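The 42 genes described here carry out DNA replication and the entry into S phase, the part of the cell cycle in which the genome is copied. They were chosen by name as members of the replication machinery, and all 42 symbols matched 1 Ensembl ID each among the 56748 IDs of the count table (GENCODE M21, GRCm38). RNA-seq counts were compared between 6 libraries labelled ATG5TLymph-/- (Atg5-deficient) and 5 labelled wildtype, which the design text gives as ATG5fl/fl. Atg5 is a protein that autophagosomes need to form, and TLymph names T lymphocytes as the cells that lack it. The labels and design text do not state the promoter that drives the deletion, nor the strain, age and sex of the mice. Both groups were liver CD4 T cells of mice given carbon tetrachloride (CCl4), an agent that injures hepatocytes and leads to fibrosis, for 5 weeks, so no library without CCl4 enters the comparison.

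Replication starts when the origin recognition complex, with Cdc6 and Cdt1, loads the ring of MCM proteins on origins during G1. Cdc45, the GINS complex and Mcm10 then turn the ring into an active helicase, and polymerases, the sliding clamp and its loader copy both strands, while Fen1 and Lig1 finish the fragments of the lagging strand. E2F transcription factors switch on most of these genes together when cyclins and their kinases, cyclin E among them, inactivate the retinoblastoma proteins. A resting T cell holds little of this machinery, and activated T cells build it before they divide.

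Sequences of the promoters are shown first because E2F factors are known to control replication genes through short words in them. Of the 42 genes, 36 had a window in the RefSeq promoter table (GRCm38.p6). The 250 bases before each start were searched on both strands for the words TTTCCCGC, TTTGGCGC, TTTCGCGC and TTTGCCGC, forms of the E2F site, which can overlap each other, and for CCAAT, the word bound by NF-Y. A gene was counted where any of its windows held the word. An E2F word was found in 10 of the 36 genes (27.8%), against 2.16% of 27025 genes with a window of the same length. CCAAT was found in 23 of 36 (63.9%), against 37.5%, and the median GC content of the windows was 58.8%, against 52.4%. Among the genes that passed the test described below, 3 of 10 with a window held an E2F word (Cdc6, Pola1 and Uhrf1), and among those that did not pass, 7 of 26 did (Dnmt1, Gins3, Mcm5, Mcm6, Mcm7, Orc1 and Rfc3). A matched word is a description of the letters and shows no binding.

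The 200 bases before the start are printed 5′ to 3′ on the strand of the gene for 3 genes that passed the test (Pola1, Mcm10 and E2f8) and 3 MCM genes that did not (Mcm5, Mcm6 and Mcm3). Windows were taken from those that overlap no GENCODE exon, and the choice was made with the values known. Capitals mark the E2F words and CCAAT, which reads ATTGG where it lies on the other strand.
Pola1 (chrX:93632156-93632355, minus strand): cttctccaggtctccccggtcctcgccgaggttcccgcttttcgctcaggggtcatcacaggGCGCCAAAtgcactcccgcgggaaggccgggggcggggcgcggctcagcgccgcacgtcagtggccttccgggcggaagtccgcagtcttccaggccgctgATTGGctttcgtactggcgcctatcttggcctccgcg
Mcm10 (chr2:5012792-5012991, minus strand): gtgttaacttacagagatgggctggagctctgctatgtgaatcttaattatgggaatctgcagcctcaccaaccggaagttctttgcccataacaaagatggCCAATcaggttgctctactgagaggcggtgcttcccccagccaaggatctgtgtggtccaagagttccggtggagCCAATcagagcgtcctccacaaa
E2f8 (chr7:48881597-48881796, minus strand): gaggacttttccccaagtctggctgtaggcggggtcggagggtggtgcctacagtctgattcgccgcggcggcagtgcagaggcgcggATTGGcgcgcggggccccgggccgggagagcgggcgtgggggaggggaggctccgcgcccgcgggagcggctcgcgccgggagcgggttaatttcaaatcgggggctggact
Mcm5 (chr8:75109309-75109508, plus strand): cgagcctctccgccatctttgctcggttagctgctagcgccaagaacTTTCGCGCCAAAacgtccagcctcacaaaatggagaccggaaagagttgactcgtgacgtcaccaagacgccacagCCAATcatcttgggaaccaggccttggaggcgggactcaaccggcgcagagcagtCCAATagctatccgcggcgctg
Mcm6 (chr1:128359706-128359905, minus strand): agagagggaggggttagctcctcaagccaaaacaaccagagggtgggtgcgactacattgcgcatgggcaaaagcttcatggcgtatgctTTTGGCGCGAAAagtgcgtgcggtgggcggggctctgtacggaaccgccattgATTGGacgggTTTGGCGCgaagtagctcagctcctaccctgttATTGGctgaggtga
Mcm3 (chr1:20820313-20820512, minus strand): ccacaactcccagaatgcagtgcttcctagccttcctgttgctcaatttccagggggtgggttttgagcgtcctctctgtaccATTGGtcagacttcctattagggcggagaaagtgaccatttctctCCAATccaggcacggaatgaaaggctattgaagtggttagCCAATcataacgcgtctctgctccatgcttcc
Mcm6 held 3 E2F words and Mcm5 held 2, with an overlapping pair on opposite strands in each. Pola1 held 1, whose last base lies 131 bases before the start. Mcm10, E2f8 and Mcm3 held CCAAT without an E2F word in these 200 bases.

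The libraries held 30699408 to 47564440 counted reads, and 3 counts were worth 0.0679 to 0.0968 CPM, counts relative to the scaled size of the library. Every member lay above that level in every library, with the lowest value at 0.692 CPM. Nothing in the labels ties each library to a mouse of its own, and the p-values given here therefore rest on the spread of these libraries, which may be technical. Summed CPM of 7 CD4 T cell markers ran from 2349 to 3538 in Atg5-deficient and from 2467 to 2805 in wild-type libraries. In 5 of the 6 Atg5-deficient libraries the sum exceeded every wild-type library, and 1 of the 7, Cd5, was higher in Atg5-deficient libraries (log2 fold change 0.40, adjusted p = 0.0214). Markers of CD8 T cells summed to at most 6.47 CPM, those of neutrophils to at most 0.578 CPM with 1 of 4 at 0 throughout, and the 7 matched markers of hepatocytes to 43.4 to 777 CPM in Atg5-deficient and 31.2 to 488 CPM in wild-type libraries. Gamma-delta T cell markers summed to 7.10 to 11.9 CPM in Atg5-deficient and 8.44 to 15 CPM in wild-type libraries, and 1 of the 5, Tcrg-C4, was lower in every Atg5-deficient library than in any wild-type one (log2 fold change -1.51, adjusted p = 0.0297). The others did not pass and were split in direction. Tcrg-C1 and Tcrg-C2 had -1.31 and -0.81 (adjusted p = 0.0977 and 0.216). Trdc, the delta chain, and Sox13 had 0.45 and 0.16 (adjusted p = 0.205 and 0.954). NK cell markers summed to 8.65 to 84.2 against 11.8 to 16.8 CPM, plasma cell markers to 121 to 261 against 171.5 to 212.5 CPM, and endothelial markers to 118 to 189 against 135.5 to 212 CPM, with no gene of these lists past the test among those tested. The highest NK sum was mostly Eomes, at 83.1 CPM in Atg5-deficient replicate 4. Eomes had a log2 fold change of 1.57, and the NK markers Klrb1c and Klre1 had -1.49 and -1.74. Plasma cell sums were mostly Ighm (113.5 to 256.5 against 168.6 to 207.1 CPM). Endothelial sums were mostly Pecam1 (117.7 to 187.8 against 134.7 to 211.1 CPM). These sums therefore rest largely on single genes.

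In each group 1 library stood apart in these genes. Atg5-deficient replicate 3 was the lowest of its group in 35 of the 42 genes and the lowest of all 11 libraries in 14. It also had the smallest total count (30699408), the lowest CD4 T cell marker sum (2349 CPM against 2947 to 3538 CPM in the other 5) and the highest sums of B cell markers (24.0 against 7.26 to 21.7 CPM) and macrophage and monocyte markers (18.6 against 5.50 to 11.5 CPM) of its group. Wild-type replicate 2 was the highest of its group in 27 genes. Its CD4 T cell marker sum (2805 CPM) was the highest among wild-type libraries, and its macrophage and monocyte sum (9.93 CPM) and B cell sum (7.19 CPM) were the lowest. The part of these markers in the results was not tested.

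Genes that rose in the Atg5-deficient libraries came from each step of replication, from licensing to chromatin copying. Of the 42 genes, 12 rose and 0 fell (edgeR quasi-likelihood test, adjusted p under 0.05), against 4.43% of 17987 tested genes that rose and 2.41% that fell. The 12 were Cdc6, Mcm10, Gins2, Pola1, Pole, Lig1, Tk1, Rrm2, Chaf1a, Uhrf1, E2f2 and E2f8. The log2 fold change was above 0 in all 42 (49.7% of all genes), and in 40 under upper-quartile scaling, with a median of 0.54 and a range from 0.01 to 1.31, against a median of -0.0027 over all genes. At an unadjusted p under 0.05, 26 of the 42 were higher and 0 lower, against 12.7% and 10.6% of all genes. In 3 genes, Gins2, Lig1 and Tk1, every Atg5-deficient library lay above every wild-type library, against 2.78% of all genes, and in 0 genes every one lay below, against 2.08%. In bulk RNA, more cells in S phase and more of this RNA in each cell cannot be told apart.

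The number of calls rested on single libraries. Without Atg5-deficient replicate 3, 25 of the 42 genes passed, against 7.96% of all genes, and these held all 12. Without Atg5-deficient replicates 1, 2, 4, 5 or 6 the number was 7, 4, 7, 5 or 8, against 2.9%, 2.56%, 2.81%, 3.59% or 4.94% of all genes. Without wild-type replicates 1, 2, 3, 4 or 5 it was 4, 14, 4, 5 or 5, against 2.18%, 3.92%, 3.16%, 2.31% or 2.31%. Lig1, Tk1, Mcm10 and Pola1 passed in each of the 11 leave-one-out fits, in which 1 library is dropped. In these fits 24 to 35 of the 42 were higher at an unadjusted p under 0.05 and 0 lower. Of the 17628 to 18446 genes tested, 1896 to 2762 were higher. From 40 to 42 of the members' log2 fold changes were above 0, with medians of 0.481 to 0.625. The names of 8 libraries (5 Atg5-deficient, 3 wild-type) carry consecutive numbers, and the labels do not say what the numbers stand for. Among these 8, edgeR called 0 of the 42 (0.462% of all genes were called higher), 15 were higher at an unadjusted p under 0.05 (8.61% of all genes), and 41 of the 42 log2 fold changes were above 0 with a median of 0.46. Over all 11 libraries DESeq2 called 22 (7.75% of all genes) and limma-voom with quality weights 26 (10.9%), each with all 12 among them, and edgeR with upper-quartile scaling called 9 (3.25%), all of them among the 12. Without a filter on low counts, which leaves 41446 genes to adjust over, edgeR called 8 (1.88%), and Gins2, Rrm2, Chaf1a, Uhrf1, E2f2 and E2f8 were no longer among them.

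**Figure D1:**
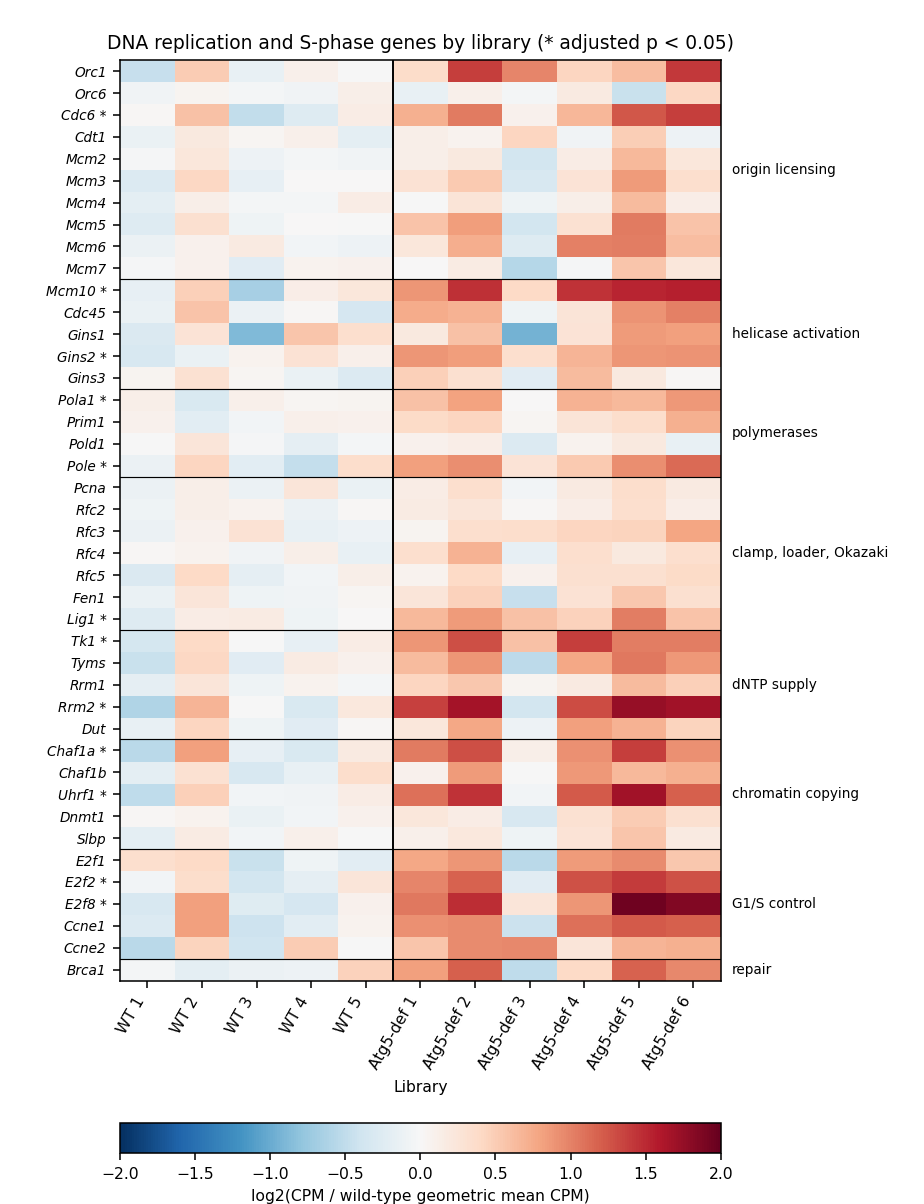
Levels of the 42 genes in each library as log2 of CPM over the geometric mean of the 5 wild-type libraries; columns are libraries, rows are genes grouped by role, and an asterisk marks adjusted p under 0.05. Atg5-deficient replicates 1, 2, 4, 5 and 6 are mostly red, replicate 3 is pale or blue in most rows, and wild-type replicate 2 is the reddest of the wild-type columns.

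Averaged over the 42 genes, the mean log2 CPM ran from 3.71 to 4.55 (median 4.37) in Atg5-deficient libraries and stood at 3.58, 4.04, 3.62, 3.72 and 3.81 in wild-type replicates 1 to 5. In 5 of the 6 Atg5-deficient libraries it exceeded every wild-type library, and replicate 3, at 3.71, lay inside the wild-type range. The group means were 4.28 ± 0.31 (SD, n = 6) and 3.75 ± 0.18 (SD, n = 5), a difference of 0.53 on the log2 scale, or 0.64 without replicate 3. Atg5-deficient replicate 5 had the highest value of all 11 libraries in 23 of the 42 genes. The plot of list means by library shows replicate 3 lowest of its group for the other lists too.

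**Figure D2:**
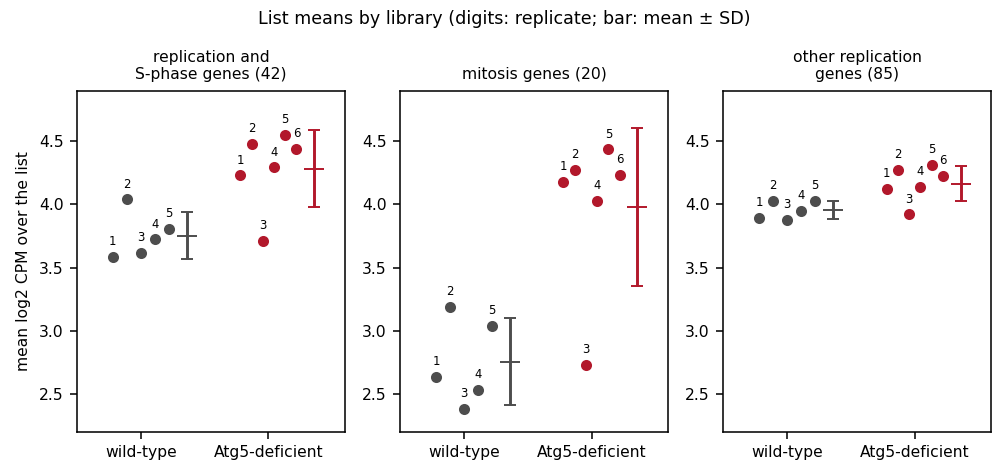
Mean log2 CPM per library over the 42 replication genes, 20 mitosis genes and 85 other replication genes (points, with replicate numbers; bars, mean ± SD; n = 5 and 6). Atg5-deficient replicate 3 lies among the wild-type libraries in all 3 panels, and the other 5 lie above every wild-type library.

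Among the 10 genes of origin licensing 1 rose, against 4.43% of all tested genes, and the median log2 fold change was 0.27. Differences between the roles were not tested. Cdc6 (chr11:98907801-98923940, plus strand), the loader that recruits the MCM ring, was at 4.91 to 12.1 CPM (median 8.52) in Atg5-deficient libraries and at 4.68, 6.97, 3.28, 3.85 and 5.12 CPM in wild-type ones. The lowest Atg5-deficient library, replicate 3, lay inside the wild-type range and the others above it. Cdc6 rose by a log2 fold change of 0.87 (SE 0.25, adjusted p = 0.0480), and it was past the threshold in 2 of 11 leave-one-out fits. Orc1, the largest subunit of the origin recognition complex, had a log2 fold change of 0.89 that did not pass (adjusted p = 0.0807). Orc6, another subunit, was at 6.93 to 12.6 CPM (median 9.70) against 9.04, 9.87, 9.17, 9.01 and 10.3 CPM, with wild-type libraries wholly inside the Atg5-deficient range. Its log2 fold change of 0.03 (95% interval -0.29 to 0.35) turned to -0.03 under upper-quartile scaling and among the 8 libraries with consecutive numbers, and to -0.06 without Atg5-deficient replicate 6. Orc6 shares 171 exonic bases with Vps35 on the other strand, which had 21522 counts against 3948 and a log2 fold change of 0.08. For Cdt1, the partner of Cdc6 in loading, the log2 fold change was 0.17 (adjusted p = 0.447).

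None of the 6 subunits of the MCM2-7 ring, the core of the replicative helicase, passed the test, and their log2 fold changes ran from 0.09 to 0.62. Over all tested genes 4.43% rose, so the lack of a call among 6 genes does not set the ring apart. Mcm6 (0.62, adjusted p = 0.0745) and Mcm5 (0.55, adjusted p = 0.117) were the only subunits with an unadjusted p under 0.05. Both passed without Atg5-deficient replicate 3 (adjusted p = 0.00452 and 0.00716) and in no other leave-one-out fit. Mcm3 stood at 0.35, Mcm4 and Mcm2 at 0.19 each, and Mcm7 at 0.09 (95% interval -0.23 to 0.42). Mcm7 turned to -0.02 without Atg5-deficient replicate 5. Mcm2 was at 52.5 to 107 CPM (median 76.6) in Atg5-deficient and at 67.1, 79.1, 63.3, 66.0 and 64.9 CPM in wild-type libraries, so the latter sat inside the range of the former.

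Helicase activation held 2 of 5 genes that rose, against 4.43% of all tested genes, with a median log2 fold change of 0.60. Mcm10 (chr2:4989714-5012791, minus strand), which binds the activated helicase and keeps polymerase alpha at the fork, was at 3.65 to 8.09 CPM (median 7.59) in Atg5-deficient libraries and at 2.48, 3.84, 1.74, 3.02 and 3.24 CPM in wild-type ones. Of the 6 Atg5-deficient libraries 5 exceeded all wild-type ones, and replicate 3 lay just under wild-type replicate 2. Mcm10 rose by a log2 fold change of 1.22 (SE 0.26, adjusted p = 0.0142). Gins2 (chr8:120578633-120589304, minus strand), a subunit of the GINS complex that joins the helicase, was at 2.99 to 4.41 CPM (median 4.27) against 1.88, 2.16, 2.49, 2.88 and 2.52 CPM, with no overlap between groups. Gins2 rose by 0.75 on the log2 scale (SE 0.20, adjusted p = 0.0369), past the threshold in 2 of 11 leave-one-out fits. Gins2 shares 2758 exonic bases with Gse1, a gene on the other strand with 53865 counts against 1355 for Gins2 and a log2 fold change of -0.03. Without the strand setting of the counting, reads over shared bases cannot be assigned between the pair.

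The remaining GINS subunits did not pass. Gins1 was at 0.692 to 2.42 CPM (median 1.81) in Atg5-deficient libraries and at 1.10, 1.61, 0.724, 1.97 and 1.68 CPM in wild-type ones. Of the Atg5-deficient libraries, 3 lay above every wild-type one and replicate 3 lay below all of them. Its log2 fold change of 0.32 had a 95% interval from -0.44 to 1.09. Gins3 stood at 0.25 (adjusted p = 0.483). Cdc45, the third component of the active helicase beside MCM and GINS, stood at 0.60 (adjusted p = 0.118). It passed without Atg5-deficient replicate 3 (adjusted p = 0.0343) and in no other leave-one-out fit. Cdc45 shares 209 exonic bases with Ufd1 on the other strand, which had 16499 counts against 2530 and a log2 fold change of 0.01.

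Among the polymerases and primase, 2 of 4 genes rose, against 4.43% of all tested genes, with a median log2 fold change of 0.50. Pola1 (chrX:93304767-93632155, minus strand), the catalytic subunit of polymerase alpha that extends primers, was at 19.4 to 35.6 CPM (median 30.96) in Atg5-deficient and at 21.1, 15.7, 20.9, 19.9 and 20.2 CPM in wild-type libraries. Apart from replicate 3, inside the wild-type range, every Atg5-deficient library lay above every wild-type one. This was a rise of 0.62 on the log2 scale (SE 0.14, adjusted p = 0.0189). Pole (chr5:110286306-110337474, plus strand), which copies the leading strand, rose by a log2 fold change of 0.76 (SE 0.18, adjusted p = 0.0275), from 14.9 ± 3.97 CPM (SD, n = 5) to 25.2 ± 5.19 CPM (SD, n = 6), and held its call in 5 of 11 leave-one-out fits. Prim1, the primase that lays down the RNA primer, had 0.37 (adjusted p = 0.0995). It passed without Atg5-deficient replicate 3 (adjusted p = 0.0341) and in no other leave-one-out fit.

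Pold1, the catalytic subunit of polymerase delta, which copies the lagging strand, had the smallest log2 fold change of the 42. It was at 30.6 to 42.5 CPM (median 38.9) in Atg5-deficient libraries and at 36.9, 43.8, 36.2, 32.7 and 35.9 CPM in wild-type ones. The highest value of all belonged to a wild-type library. The value was 0.01 (95% interval -0.21 to 0.23), with -0.06 under upper-quartile scaling and -0.03 without Atg5-deficient replicate 5 or wild-type replicate 4.

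The clamp, its loader and the enzymes of Okazaki fragments held 1 gene of 7 that rose. The share of all tested genes was 4.43%, and the median of the 7 was 0.26. Lig1 (chr7:13277283-13311433, plus strand), the ligase that seals the fragments of the lagging strand, had the smallest p of the 42. It was at 47.8 to 70.2 CPM (median 53.1) in Atg5-deficient and at 29.1, 38.6, 38.8, 32.8 and 35.0 CPM in wild-type libraries. Every Atg5-deficient library, replicate 3 included at 52.0 CPM, exceeded every wild-type one. Lig1 rose by a log2 fold change of 0.69 (SE 0.11, adjusted p = 0.00482), and by 0.71 without replicate 3. Fen1, the nuclease that trims the fragments before Lig1 seals them, was at 12.5 to 25.2 CPM (median 21.2) against 15.8, 20.5, 16.2, 16.4 and 17.7 CPM. Replicate 3 was below all wild-type libraries and set the lower end. At 0.26 on the log2 scale Fen1 did not pass (adjusted p = 0.325) but did without replicate 3 (0.37, adjusted p = 0.0311). No other leave-one-out fit called Fen1.

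Pcna, the sliding clamp, had 0.19 (adjusted p = 0.259), and the 4 loader subunits Rfc2, Rfc3, Rfc4 and Rfc5 had 0.17, 0.41, 0.31 and 0.25, none past the threshold. Rfc4 and Rfc5 overlap genes on the other strand with more counts, Eif4a2 (log2 fold change -0.39, adjusted p = 0.0151) and Wsb2 (0.34, adjusted p = 0.0290).

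**Figure D3:**
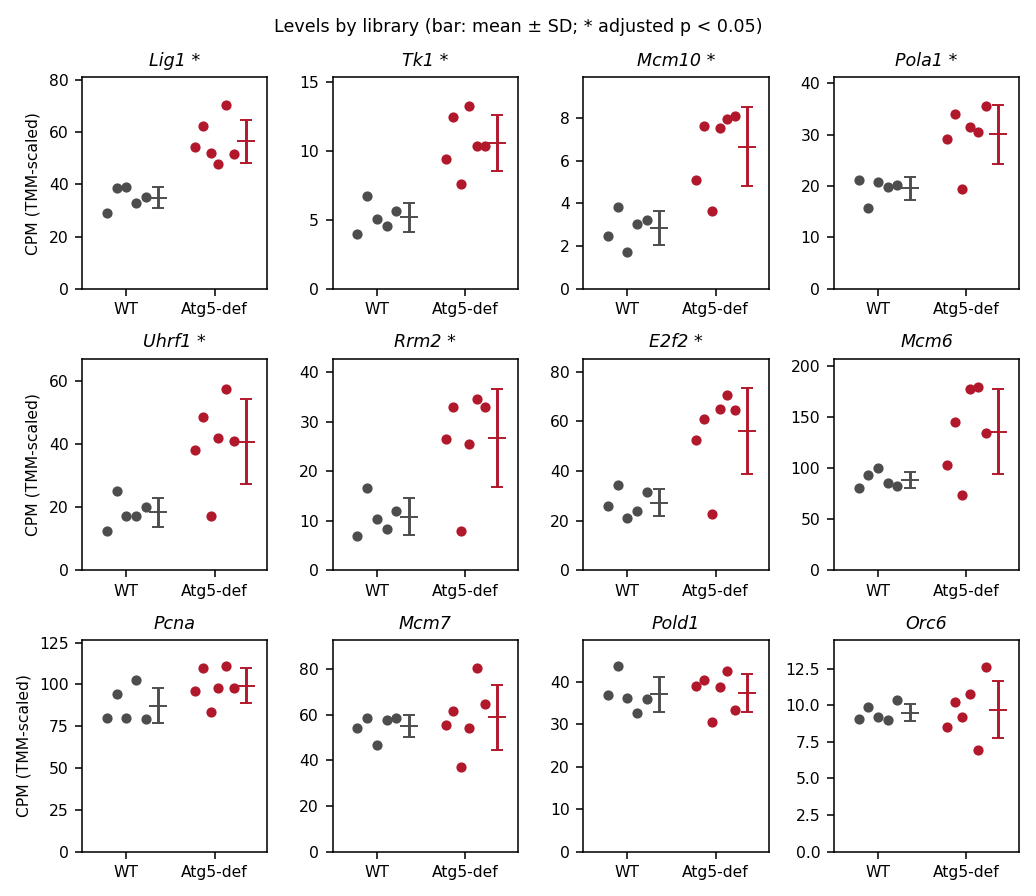
CPM per library for 12 of the genes (points, libraries in replicate order; bars, mean ± SD; n = 5 wild-type and 6 Atg5-deficient; an asterisk marks adjusted p under 0.05). Lig1 and Tk1 show no overlap between groups, in Pola1, Uhrf1, Rrm2 and E2f2 only Atg5-deficient replicate 3 reaches into the wild-type range, and in Pold1 and Orc6 the groups overlap.

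Of the 5 genes that supply deoxynucleotides, 2 rose, against 4.43% of all tested genes, and the median was 0.67. All 5 were higher at an unadjusted p under 0.05, against 12.7% of all tested genes. Tk1 (chr11:117815526-117826092, minus strand), the thymidine kinase of dividing cells that recycles thymidine, was at 7.64 to 13.3 CPM (median 10.4) in Atg5-deficient and at 3.999, 6.71, 5.05, 4.53 and 5.63 CPM in wild-type libraries. The groups did not overlap, and the mean was 10.6 ± 2.04 CPM (SD, n = 6) against 5.18 ± 1.05 CPM (SD, n = 5). Tk1 thus rose by 1.03 on the log2 scale (SE 0.18, adjusted p = 0.00663). Tk1 shares 83 exonic bases with Afmid on the other strand (log2 fold change 0.38, adjusted p = 0.118). Rrm2 (chr12:24708241-24714146, plus strand), the S-phase subunit of ribonucleotide reductase, had the largest change of the 42. It was at 8.02 to 34.5 CPM (median 29.7) against 6.85, 16.6, 10.3, 8.41 and 12.0 CPM. The lower end was replicate 3, inside the wild-type range, and the next lowest Atg5-deficient library stood at 25.5 CPM. Rrm2 rose by 1.31 on the log2 scale (SE 0.34, adjusted p = 0.0427), and by 1.49 without replicate 3, with a call in 2 of 11 leave-one-out fits.

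Rrm1, the partner subunit of the reductase, had 0.39 and fell just short of the threshold (adjusted p = 0.0507). Tyms, which makes thymidylate anew, was at 5.25 to 15.6 CPM (median 13.3) against 5.54, 9.998, 6.41, 8.44 and 7.998 CPM. Replicate 3 was the lowest of all 11 libraries and the other 5 lay above every wild-type library. At 0.67 on the log2 scale Tyms did not pass (adjusted p = 0.104) but did without replicate 3 (0.82, adjusted p = 0.00566). No other leave-one-out fit called Tyms. Dut, which removes dUTP, had 0.50 (adjusted p = 0.0896).

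Chromatin copying held 2 of 5 genes that rose, against 4.43% of all tested genes, with a median of 0.54. Uhrf1 (chr17:56303321-56323486, plus strand), which recognises half-methylated DNA behind the fork and recruits Dnmt1, was at 17.2 to 57.6 CPM (median 41.4) in Atg5-deficient and at 12.5, 24.96, 17.2, 17.1 and 19.9 CPM in wild-type libraries. Replicate 3 was inside the wild-type range and the other 5 were above it. Uhrf1 rose by 1.15 on the log2 scale (SE 0.26, adjusted p = 0.0237), with a call in 6 of 11 leave-one-out fits. Dnmt1, the maintenance methyltransferase itself, was at 180 to 318 CPM (median 270.5) against 229, 235, 206, 215 and 238 CPM. For Dnmt1 the log2 fold change was 0.22 (95% interval -0.03 to 0.47, adjusted p = 0.281). It passed without replicate 3 at 0.30 (adjusted p = 0.0244) and in no other leave-one-out fit.

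Chaf1a (chr17:56040439-56072289, plus strand), the large subunit of the CAF-1 complex that places histones on new DNA, was at 9.37 to 22.5 CPM (median 17.1) against 5.99, 15.2, 7.76, 7.04 and 9.81 CPM. Wild-type replicate 2 stood above the other wild-type libraries and Atg5-deficient replicate 3 below the other Atg5-deficient ones, so that the groups met. Chaf1a rose by 0.92 on the log2 scale (SE 0.25, adjusted p = 0.0472), with a call in 2 of 11 leave-one-out fits. It shares 4648 exonic bases with Ubxn6 on the other strand, which had 15567 counts against 5609 and a log2 fold change of 0.02. Chaf1b, the middle subunit, had 0.54 (adjusted p = 0.107), and Slbp, which binds histone mRNA, had 0.22 (adjusted p = 0.234).

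The regulators of the G1/S step had the highest median of the roles with more than 1 gene, 0.85. Of these 5, 2 rose, against 4.43% of all tested genes. All 5 were higher at an unadjusted p under 0.05, against 12.7%. E2f2 (chr4:136172394-136196057, plus strand), an activating E2F factor, was at 22.8 to 70.5 CPM (median 62.8) in Atg5-deficient and at 25.9, 34.1, 20.8, 23.6 and 31.5 CPM in wild-type libraries. Replicate 3 fell inside the wild-type range, while the other 5 began at 52.5 CPM. The log2 fold change was 1.04 (SE 0.25, adjusted p = 0.0289), with a call in 4 of 11 leave-one-out fits. E2f8 (chr7:48866429-48881596, minus strand), a repressing E2F factor made in S phase, was at 6.23 to 20.2 CPM (median 12.7) against 4.18, 9.26, 4.41, 4.16 and 5.58 CPM, where wild-type replicate 2 overlapped the lowest Atg5-deficient library. It had a log2 fold change of 1.28 (SE 0.31, adjusted p = 0.0284) and a call in 5 of 11 leave-one-out fits.

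E2f1, the other activating factor on the list, was at 2.55 to 7.11 CPM (median 6.50) against 4.68, 4.87, 2.72, 3.48 and 3.18 CPM. Replicate 3 was the lowest of all libraries, and the others lay above every wild-type one. Its log2 fold change of 0.62 did not pass (adjusted p = 0.162) but did without replicate 3 (0.77, adjusted p = 0.0208). No other leave-one-out fit called E2f1. Ccne1, the cyclin E that drives entry into S phase, was at 4.56 to 14.3 CPM (median 12.6) against 5.10, 10.9, 4.595, 5.33 and 6.42 CPM. Its log2 fold change was 0.85 (adjusted p = 0.0901) and, without replicate 3, 1.01 (adjusted p = 0.00804). Ccne1 passed in 2 of 11 leave-one-out fits. Ccne2, its paralog, had 0.64 (adjusted p = 0.124). Ccne2 shares 609 exonic bases with Ints8 on the other strand, which had 18816 counts against 1407 and a log2 fold change of 0.03. Brca1, which protects and repairs stalled forks, was at 6.04 to 19.7 CPM (median 16.0) against 8.36, 7.51, 7.90, 8.04 and 11.8 CPM. Replicate 3 was below all wild-type libraries. The log2 fold change was 0.76 (adjusted p = 0.0882), and 0.92 without replicate 3 (adjusted p = 0.00444). No other leave-one-out fit called Brca1.

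**Figure D4:**
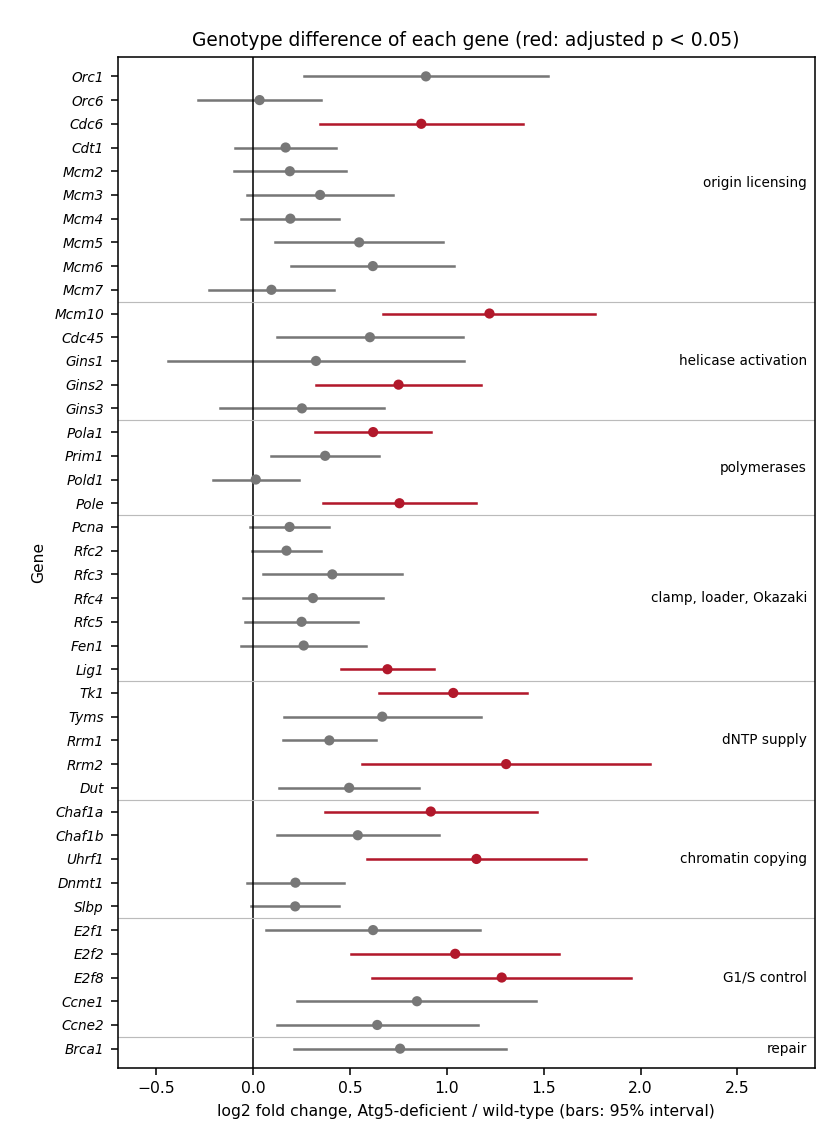
Log2 fold change (Atg5-deficient over wild-type) of each gene with its 95% interval, from the fit over all genes, grouped by role; red marks adjusted p under 0.05. All 42 points lie right of 0 (40 under upper-quartile scaling), from 0.01 (Pold1) to 1.31 (Rrm2), and the MCM2-7 subunits lie between 0.09 and 0.62.

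Levels can be compared between genes only per length. Per kilobase of exon, the highest mean levels over all libraries were those of Pcna (39.1 CPM per kilobase), Dnmt1 (33.1), Mcm4 (25.1), Mcm6 (24.4) and Mcm3 (18.7), none of which passed the test. Orc1 (0.529 CPM per kilobase), Mcm10 (0.642) and Gins2 (0.80) were the lowest. In the lower 21 genes by level 8 rose, with a median log2 fold change of 0.67. In the upper 21 genes 4 rose, with a median of 0.26, against 4.43% of all tested genes. The same split was not made over all tested genes. Across the 42 genes the rank correlation of the level per kilobase with the log2 fold change was -0.52. With mean CPM not divided by length it was -0.37. The length was that of all annotated exons of a gene, and the value depends on this measure. Both are descriptions over genes that share the same libraries and are not independent.

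**Figure D5:**
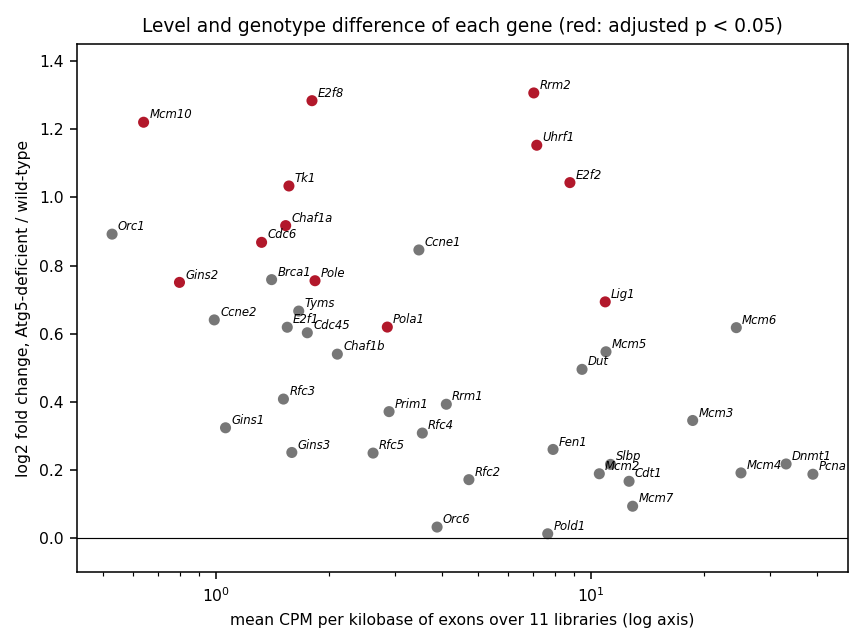
Log2 fold change of each gene against its mean level over the 11 libraries in CPM per kilobase of exon (log axis); red marks adjusted p under 0.05. Rrm2, Uhrf1 and E2f2 combine a middle level with a log2 fold change over 1, while Pcna and Dnmt1, at the right, lie near 0.2.

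The list of other genes of the replication pathway held 85, all of them tested. Of these, 14 rose and 0 fell, against 4.43% and 2.41% of all tested genes. The median log2 fold change was 0.08, and 55 of 85 were above 0, against 49.7% of all genes. At an unadjusted p under 0.05, 26 were higher and 4 lower, against 12.7% and 10.6%. In all 11 leave-one-out fits 6 passed, among them Ticrr, Hells, Cdk6, Cdkn1a and Cdkn2c. The number fell to 7 without Atg5-deficient replicates 2 or 4, to 8 without Atg5-deficient replicate 5 or wild-type replicates 1, 3 or 4, and to 9 without wild-type replicate 5, and was 21 (19 higher, 2 lower) without Atg5-deficient replicate 3. Over all genes, 1410 of 17704 were higher and 733 lower in that fit. DESeq2 called 21 of the 85 higher and 2 lower, limma-voom with quality weights 23 and 5, and upper-quartile scaling 9 and 2. Over all genes these were 1404 and 981 of 18116, 1966 and 1460 of 17987, and 584 and 685 of 17987. Under upper-quartile scaling 45 of the 85 were above 0, with a median of 0.01. Those that rose in licensing and helicase activation were Gmnn, geminin, the inhibitor of Cdt1 (0.56, adjusted p = 0.0324), and Ticrr, treslin, which helps load Cdc45 (1.22, adjusted p = 0.0160). At the fork they were Clspn, claspin of the checkpoint (1.05, adjusted p = 0.0221), Dna2, a nuclease of Okazaki fragments (1.03, adjusted p = 0.0232), and Atad5, which unloads the clamp (0.59, adjusted p = 0.0425). Hells, a chromatin remodeller, rose as well (0.73, adjusted p = 0.0172). None of the 8 other polymerase subunits passed, too few genes to differ from the 4.43% over all genes. Pold3 had the smallest p of the 8 (0.24, adjusted p = 0.0782).

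Among 20 other G1/S regulators 6 rose, and they act in both directions on the cycle. Cdk6, the kinase partner of cyclin D, stood at 115 to 165 CPM (median 138.5) in Atg5-deficient and at 77.4, 62.5, 85.3, 86.4 and 88.9 CPM in wild-type libraries. Its groups did not overlap, and the log2 fold change was 0.79 (SE 0.11, adjusted p = 0.00250). The cyclin-dependent kinase inhibitors Cdkn1a (1.54, adjusted p = 0.0172) and Cdkn2c (1.25, adjusted p = 0.0149) rose too, as did E2f3 (0.75, adjusted p = 0.0277), the repressing E2f7 (1.22, adjusted p = 0.0429) and Rbl2, a retinoblastoma family member (0.36, adjusted p = 0.0371). Cdkn1a was at 6.81 to 23.4 CPM (median 14.8) against 3.61, 2.87, 7.88, 6.59 and 3.90 CPM. Unlike in the 35 genes above, Atg5-deficient replicate 3 was its highest library and replicate 5 the lowest of that group.

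Genes of mitosis, the step that follows S phase, were measured beside them. Of 20, 18 rose and 0 fell, against 4.43% and 2.41% of all tested genes, with a median log2 fold change of 1.31. Kif20a and Birc5 did not pass (adjusted p = 0.128 and 0.0585). Of the 18, 10 passed in all 11 leave-one-out fits. The number passing ran from 11, without wild-type replicate 4, to 20, without Atg5-deficient replicate 3, against 2.31% and 7.96% of all genes called higher. Mki67, the Ki-67 marker of cycling cells, was at 168 to 462 CPM (median 397) against 137, 165, 117, 137 and 183 CPM, with a log2 fold change of 1.305 (SE 0.22, adjusted p = 0.00791). Replicate 3 was the lowest Atg5-deficient library here too, inside the wild-type range. Cdk1, the mitotic kinase (1.31, adjusted p = 0.00684), and Aurkb, a kinase of chromosome segregation (1.70, adjusted p = 0.00786), had the smallest p-values. The difference between the medians of the mitosis and replication lists was not tested. Among the 8 libraries with consecutive numbers, 1 of 20 mitosis genes passed and 19 were higher at an unadjusted p under 0.05, against 0.462% and 8.61% of all genes higher. In the same libraries 1 of the 85 other replication genes passed, with 21 higher and 1 lower at an unadjusted p under 0.05. Of all 18831 genes tested there, 1621 were higher and 1591 lower at that unadjusted p.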

How the data were processed

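Reads of 11 libraries of liver CD4 T cells were counted per Ensembl gene by the authors, who deposited raw counts in 1 table. STAR, featureCounts and GRCm38 are named in the submitters' processing notes. The annotation release, tool versions, strand setting and treatment of multimapping reads are not given there. The design text describes flow sorting, whereas the labels' protocols describe fixed, paraffin-embedded sections and a stranded total RNA kit, and the labels do not settle which applies. IDs were matched to GENCODE M21 (52073 of 56748, 91.8%), and members by symbol. Whether the deleted part of Atg5 is counted is not known, so gene-level Atg5 does not check the labels.

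Low genes were removed with filterByExpr (at least 10 counts, total of at least 15), TMM gave the scaling factors, and the genotypes were compared with edgeR 4.0.16 (quasi-likelihood, robust, R 4.3.3), with Benjamini-Hochberg adjustment over 17987 genes and a threshold of 0.05. CPM are TMM-scaled, and list means use log2 CPM. The common biological coefficient of variation was 0.341. The test was checked on simulated counts. Alternatives were other scalings and filters, DESeq2 1.42.0, limma-voom 3.58.1 with quality weights, the 8 libraries with consecutive numbers (5 Atg5-deficient, 3 wild-type), and leave-one-out fits. Leaving out Atg5-deficient replicate 3 and wild-type replicate 2 together was chosen after seeing the data. The members, lists and tests were chosen with earlier results of these data known. Named with all libraries were the 3 members with the smallest p, the smallest and largest p of each role, and members with an outlying library. Also named were other replication genes that passed or had the smallest p of their group, apart from some that are not reported here, and Mki67 with the smallest p-values of the mitosis list. Others are given by fold change. Replicates were numbered in accession order and pair nothing. The table had 0 columns of other samples.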

Additional observations from a re-analysis of the deposited data

Results flagged for a closer look

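In each group of libraries the gap between the end value and its nearest neighbour was set against the whole range of the group (Dixon's 95% critical value, on log2 CPM). Of 86 groups of values, 13 had such an outlying library, where chance gives about 1 in 20 for a single group. The groups share the same libraries and are not independent, so 13 of 86 is a description and not a test against that rate. Atg5-deficient replicate 3 was the low value in 10 of the 13.

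Its values were 0.692 CPM for Gins1 (1.52 to 2.42 CPM in the other 5 libraries), 19.4 CPM for Pola1 (29.2 to 35.6), 12.5 CPM for Fen1 (20.5 to 25.2), 5.25 CPM for Tyms (11.7 to 15.6) and 8.02 CPM for Rrm2 (25.5 to 34.5). For Chaf1a it stood at 9.37 CPM (16.3 to 22.5), for Uhrf1 at 17.2 CPM (38.2 to 57.6), for E2f1 at 2.55 CPM (5.36 to 7.11), for E2f2 at 22.8 CPM (52.5 to 70.5) and for Ccne1 at 4.56 CPM (11.5 to 14.3).

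Among wild-type libraries, replicate 2 was high for Mcm2, at 79.1 CPM (63.3 to 67.1 CPM in the other 4), and low for Pola1, at 15.7 CPM (19.9 to 21.1). Wild-type replicate 5 was high for Brca1, at 11.8 CPM (7.51 to 8.36).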

How the results depend on the processing

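Under DESeq2, limma-voom with quality weights and the 8 libraries with consecutive numbers, the members called numbered 22, 26 and 0, against 12, the other replication genes 23, 28 and 1, against 14, and all genes 2385, 3426 and 176, against 1231. Mitosis genes numbered 1 of 20 among those 8 libraries, against 18. Without Atg5-deficient replicate 3 and wild-type replicate 2 together, the numbers were 28 members, 22 other replication genes and 2492 genes. With 1 library left out, they were 4 to 25 members, 7 to 21 other replication genes, 11 to 20 mitosis genes and 642 to 2143 genes. Upper-quartile scaling called 9 members and shifted the split of all calls from 797 higher and 434 lower to 584 and 685. The difference in the members' mean log2 CPM stayed between 0.46 and 0.72. Of 840 results of single members over the alternatives, 691 kept direction and side of the threshold, 60 passed it newly, 81 lost it and 8 changed direction. The last were Orc6 (-0.0313 under upper-quartile scaling, -0.0326 among the 8 libraries and -0.0558 to 0.1135 over leave-one-out fits), Mcm7 (-0.0162 without Atg5-deficient replicate 5, and up to 0.2203) and Pold1 (-0.058 under upper-quartile scaling and -0.0278 to 0.1334 with libraries left out). The cause was not tested. No paired analysis was possible because replicate numbers follow accession order and link no libraries. Genes at a few CPM, such as Gins1, had wide intervals at this depth.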
